A study of Mus musculus with 20 samples.

Results

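The expression of 39 genes that drive cell division was measured in mouse bone marrow-derived macrophages grown with or without SGC0946, an inhibitor of the histone methyltransferase DOT1L. The genes were chosen by name, 22 for mitosis and 17 for DNA replication and the G1/S transition, and each was read from its RefSeq transcript with the highest total count. All 39 were present among the 24342 gene symbols of the deposited count table, and all 39 passed the filter on low counts, as did 12013 genes in all. Of the 39 genes, 15 had more than 1 transcript in the table.

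Marrow of C57BL/6 mice was cultured for 7 to 8 days with 15% L929-conditioned medium, the source of the growth factor M-CSF, and with 1 µM SGC0946 or the solvent DMSO. Cells were then given 10 ng/mL of the bacterial product LPS for 3 h, or 2 µM of the LXR agonist GW3965 for 17 h, or were left unstimulated. The 6 groups were SGC0946+LPS and DMSO+LPS (3 libraries each), SGC0946+GW3965 and DMSO+GW3965 (3 each), and SGC0946 alone and DMSO alone (4 each), which makes 20 libraries of bulk mRNA. Libraries with the same replicate number came from the same mouse according to the deposited sample sheet. The libraries were made from bulk cultures, so a smaller share of dividing cells and less RNA per dividing cell cannot be told apart in any value below.

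Macrophages grown in M-CSF go on dividing in culture until a stimulus or differentiation arrests them. Entry into S phase is driven by cyclin E with its kinase and by E2F transcription factors, which switch on the helicase, clamp and nucleotide enzymes that copy DNA. Mitosis genes are switched on later by the MuvB complex with B-MYB and FOXM1, while LPS is known to arrest macrophages before S phase.

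The letters known for these waves of transcription were searched in the promoters, and stretches are printed for members whose values follow in every library. RefSeq promoter windows of GRCm38.p6, from 250 bases before to 50 after each start, were at hand for 32 of the 39 genes; Ccna2, Aurkb, Kif20a, Tpx2, Mcm4, Ccne2 and Gins1 had none. The cell cycle homology element (CHR), searched on both strands as TTTGAA and as its variant with TTTAAA, was found in 89.5% of 19 windows of mitosis genes and in 33.3% of 15 windows of replication genes, against 27.6% of all 32851 windows. CCAAT on either strand was found in 89.5% of mitosis windows, 60% of replication windows and 37.4% of all windows. A window with both was found for 84.2% of mitosis windows, 20% of replication windows and 10.7% of all windows. E2F letters, searched on both strands as TTCCCGC and as its variants with TTGGCGC and with TTCGCGC and with TTGCCGC, were in 15.8% of mitosis windows, 60% of replication windows and 9.57% of all windows. A match is a run of letters and not a measured binding site. E2F matches on opposite strands may overlap each other, and CHR and CCAAT letters may share an end base.

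For 6 mitosis genes the stretch around the last CHR match before the start follows, with CHR and CCAAT letters of either strand in capitals. They lie at chr7:135716452-135716522 (minus strand), chr11:99024190-99024257 (minus), chr13:100786503-100786573 (minus), chr10:69352913-69352972 (minus), chr7:122159361-122159431 (plus) and chr4:118437344-118437406 (minus), each written 5′ to 3′ on the strand of its gene. In Top2a the CHR reads TTCAAA, the reverse complement.
Mki67: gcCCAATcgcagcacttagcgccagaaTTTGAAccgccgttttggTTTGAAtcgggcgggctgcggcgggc
Top2a: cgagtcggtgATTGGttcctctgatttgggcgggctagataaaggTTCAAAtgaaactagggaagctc
Ccnb1: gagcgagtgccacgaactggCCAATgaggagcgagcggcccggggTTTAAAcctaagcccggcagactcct
Cdk1: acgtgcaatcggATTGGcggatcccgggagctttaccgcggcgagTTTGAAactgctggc
Plk1: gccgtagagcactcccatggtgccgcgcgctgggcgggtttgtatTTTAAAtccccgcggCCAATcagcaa
Cdc20: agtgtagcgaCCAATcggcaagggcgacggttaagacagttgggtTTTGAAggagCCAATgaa

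Of the replication genes chosen by role for values in every library, Mcm2, Pcna, Tyms, Ccne1 and E2f1 had a window without an E2F match. Ccne2 had no window. For the other 3 the stretch around the last E2F match before the start follows, with the E2F letters of either strand in capitals. They lie at chr8:75109315-75109386, chr12:24708004-24708045 and chr11:98907968-98908039, all on the plus strand. In Mcm5 the capitals hold matches on opposite strands that overlap.
Mcm5: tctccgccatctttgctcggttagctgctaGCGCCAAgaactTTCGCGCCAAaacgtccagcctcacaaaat
Rrm2: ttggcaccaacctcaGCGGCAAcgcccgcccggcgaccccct
Cdc6: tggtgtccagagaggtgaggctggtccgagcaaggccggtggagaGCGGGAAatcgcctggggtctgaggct

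Depth was 8174951 to 13331945 counts per library over the genes used, and 13940954 to 23105513 counts over all transcripts. Levels within a gene are given as CPM, its share of the TMM-scaled library total, and changes as log2 fold changes ± 1 SE from edgeR's quasi-likelihood test on all 20 libraries, with a gene called where its p, adjusted by Benjamini and Hochberg's method over the 12013 genes, was under 0.05. All 8 macrophage markers were detected in every group. Of 5 erythroid markers 3 were at 0 in all libraries of each group, while Tfrc of that list, the transferrin receptor gene, stood at 92.2 to 199 CPM, and Pf4 of the megakaryocyte list, a platelet chemokine gene, at 53.4 to 133 CPM. Levels compared between genes use RPKM, which is scaled to transcript length. On that scale Pcna was highest among the 39 genes in DMSO cells, at 59.01 ± 2.79 RPKM against 45.4 ± 8.93 RPKM for it in SGC0946 cells. The licensing gene Cdc6 was lowest, at 0.66 ± 0.16 RPKM in SGC0946 cells and 0.94 ± 0.13 RPKM in DMSO cells (SD, n = 4 each). For Kif20a, Ube2c, Ccne2, Ccna2 and Prc1, between 11.1% and 29.3% of the exon length lies over exons of a gene on the other strand; the strand setting of the counting is not given in the sources used here, so these 5 counts are uncertain.

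In unstimulated cells grown with SGC0946, every one of the 39 genes had a mean below that of DMSO cells, and no gene passed the test. The median change was -0.30 on the log2 scale, with -0.24 over the 22 mitosis genes (range -0.43 to -0.03) and -0.37 over the 17 replication genes (range -0.56 to -0.10); the median of all genes tested was -0.00, and 51.2% of them had a negative change. The low means came from SGC0946 replicates 2 and 4, while replicates 1 and 3 stood near DMSO. With edgeR 0 of 39 were called, against 8.72% of all genes tested in either direction and 4.18% that were lower. At an unadjusted p under 0.05 stood 12 of them, 3 for mitosis and 9 for replication, against 2737 of all 12013 genes. DESeq2 called 2, Pcna and E2f1, against 1178 of all genes, 527 of them lower. With the mouse as a block, edgeR called 4 lower (6.02% of all genes were lower in that fit), namely Pcna (-0.39, adjusted p = 0.0096), Mcm6 (-0.44, adjusted p = 0.022), Aurkb (-0.45, adjusted p = 0.044) and E2f1 (-0.25, adjusted p = 0.0456).

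The split between libraries ran through both classes of gene. The median mitosis gene of SGC0946 replicate 2 lay -0.64 and that of replicate 4 lay -0.52 from the DMSO mean, with 22 of 22 genes below it in each, against -0.05 in replicate 1 and 0.06 in replicate 3. For replication genes the medians were -0.80 in replicate 2 and -0.53 in replicate 4, with 17 of 17 below the DMSO mean, against -0.12 in replicate 1 and -0.03 in replicate 3. DMSO cells of the same mice were not low, and their mitosis medians were 0.04 in replicate 2 and 0.11 in replicate 4. Set against DMSO cells of the same mouse, the median of all 39 genes was -0.70 in mouse 2 and -0.67 in mouse 4, and -0.02 in mouse 1 and 0.14 in mouse 3. Replicates 2 and 4 hold the low SGC0946 libraries, so leaving them out raises the median by construction and does not test the inhibitor. When they were left out of every group, the median of SGC0946 against DMSO was 0.08 (0.10 for mitosis and 0.02 for replication). In that fit 9 of 39 changes were negative and 0 were called by edgeR, and the median moved less when 1 mouse was left out. The median was -0.15 without mouse 2 alone and -0.18 without mouse 4 alone, with 36 of 39 negative in each. Without the DMSO libraries whose titles carry the word reanalyzed (replicates 1 to 3), the median was -0.42 with 39 negative. That leaves 1 DMSO library, replicate 4. Its median over the 39 genes was the highest of the DMSO libraries, at 0.13 from their mean. A lower median in that fit follows from this library and does not test the inhibitor.

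**Figure D1:**
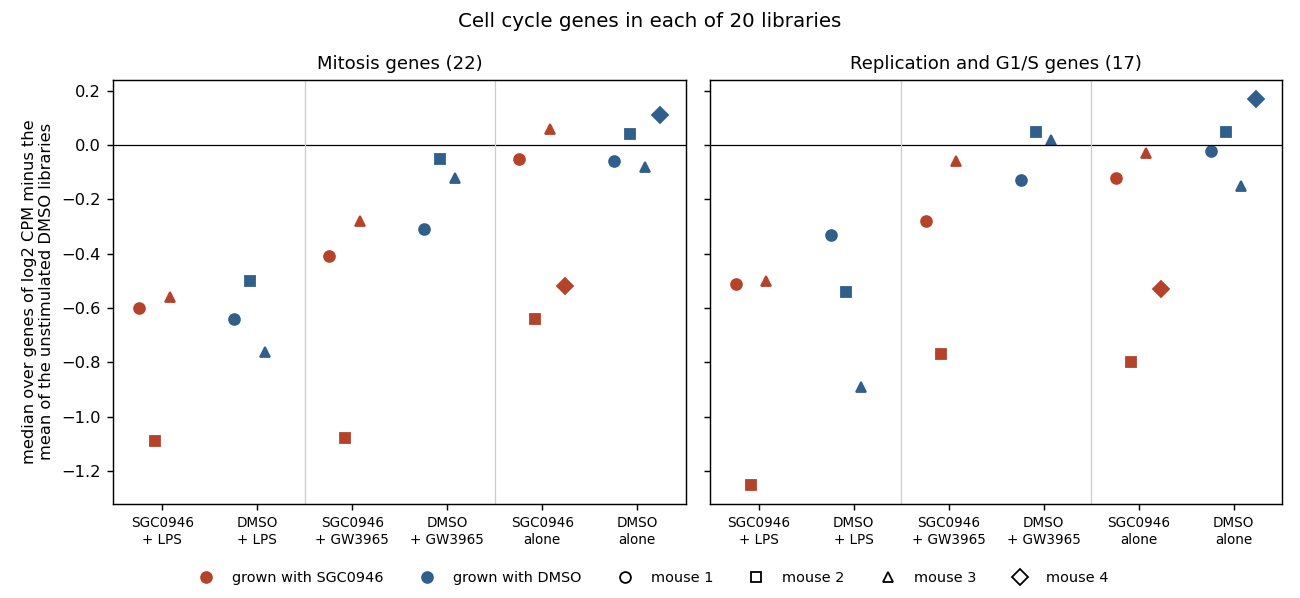
Median log2 difference of the 22 mitosis genes and of the 17 replication genes from the mean of the unstimulated DMSO cells, with 1 point per library (20 libraries, 6 groups). Among unstimulated cells, SGC0946 replicates 2 and 4 lie at -0.64 and -0.52 for mitosis and at -0.80 and -0.53 for replication, while the other SGC0946 libraries and all 4 DMSO libraries lie between -0.15 and 0.17.

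The spread between libraries was accordingly wider with the inhibitor. The median SD of log2 CPM over mitosis genes was 0.37 among SGC0946 libraries and 0.10 among DMSO libraries, and over replication genes 0.38 and 0.16 in that order of groups. All genes tested had a median SD of 0.13 in SGC0946 and 0.10 in DMSO cells. The summed level of macrophage markers moved with the split, at 16060 and 17493 CPM in SGC0946 replicates 2 and 4. It was 13979 and 12972 CPM in replicates 1 and 3 and 15460 to 17033 CPM in DMSO. Lyz2 made up the largest part, with 7902, 8950, 7003 and 10596 CPM in SGC0946 replicates 1 to 4. Adgre1, Csf1r, Itgam, Mertk and Fcgr1 were also highest in replicates 2 and 4. Cd68 (1837, 1913, 1789 and 1804 CPM) and C1qa (147, 188, 172 and 171 CPM) did not split that way. The mast cell and basophil list, carried mainly by the receptor gene Kit, summed to 12.5 and 11 CPM in SGC0946 replicates 2 and 4, against 19.2 and 23.6 CPM in replicates 1 and 3 and 9.4 to 12.2 CPM in DMSO; 1 of its 4 genes was tested. Granulocyte precursor markers (10 listed, 5 tested) summed to 2.08 to 8.27 CPM in SGC0946 and 31.2 to 42 CPM in DMSO libraries. The erythroid list summed to 114 to 134 CPM in SGC0946 and 120 to 162 CPM in DMSO libraries, and the megakaryocyte list to 68.5 to 82.2 CPM in SGC0946 and 75.3 to 88.4 CPM in DMSO libraries. Dendritic, B, T and NK, stromal and progenitor lists summed to at most 8.12 CPM in any SGC0946 and 8.82 CPM in any DMSO library. Their part in the result was not tested.

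Among mitosis genes, Mki67, which encodes the proliferation marker Ki-67, had 288, 199, 326 and 198 CPM in SGC0946 replicates 1 to 4, against 305, 303, 265 and 316 CPM in DMSO replicates 1 to 4. Top2a, the topoisomerase that untangles chromosomes before they part, had 228, 138, 243 and 154 CPM in SGC0946 cells, against 205, 217, 187 and 239 CPM in DMSO cells. In both genes replicates 2 and 4 of SGC0946 were the lowest of the 8 libraries, and replicate 3 was the highest. The mitotic cyclin gene Ccnb1 had 20.7, 9.91, 19.6 and 12.5 CPM in SGC0946 cells, against 18.3, 17.2, 18.2 and 20 CPM in DMSO cells. Its kinase Cdk1 had 46.8, 28.4, 50.2 and 35 CPM in SGC0946 cells, against 49.2, 45.3, 50.7 and 52.2 CPM in DMSO cells. The groups overlapped in each, and the changes were -0.23 ± 0.17 for Mki67 (adjusted p = 0.447), -0.15 ± 0.18 for Top2a (adjusted p = 0.66), -0.25 ± 0.22 for Ccnb1 (adjusted p = 0.549) and -0.31 ± 0.16 for Cdk1 (adjusted p = 0.28).

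Plk1, the kinase that drives spindle and centrosome maturation, had 36, 25.3, 38.8 and 24.2 CPM in SGC0946 cells, against 35, 38.9, 37.7 and 41 CPM in DMSO cells. Cdc20, the activator of the anaphase-promoting complex, had 34, 22.1, 33.4 and 24.4 CPM in SGC0946 cells, against 31.3, 35, 31 and 38.7 CPM in DMSO cells. Again the pair of low libraries was that of mice 2 and 4, and neither gene passed (-0.30 ± 0.15, adjusted p = 0.225, for Plk1; -0.26 ± 0.15, adjusted p = 0.326, for Cdc20). Aurkb, the kinase of the chromosomal passenger complex, was the mitosis gene with the lowest value, at -0.43 ± 0.17 (adjusted p = 0.139). Its SGC0946 libraries held 29.3, 16.5, 28.5 and 20.8 CPM, against 29.9, 31.8, 30.6 and 35 CPM in DMSO, so that the groups did not overlap. Its change was -0.06 (adjusted p = 0.917) without replicates 2 and 4 of every group. At the other end Cenpe and Cenpf, which encode kinetochore proteins, both had a change of -0.03. No overlap was seen for Aurkb and E2f1 of the 39 genes, against 8.39% of all genes that were lower in this way.

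Among replication genes, Mcm2 of the MCM helicase had 21.8, 13.8, 24.9 and 13.9 CPM in SGC0946 cells, against 23.6, 26.2, 22.9 and 29.2 CPM in DMSO cells. Mcm5 of the same ring had 33.2, 16.2, 36.1 and 20.6 CPM in SGC0946 cells, against 37.5, 40.2, 33 and 42.3 CPM in DMSO cells. Pcna, the sliding clamp of the DNA polymerases, had 59.1, 44, 70.4 and 52.7 CPM in SGC0946 cells, against 75.7, 71.5, 70.1 and 74.7 CPM in DMSO cells. In Pcna 3 of the 4 SGC0946 libraries lay below all DMSO libraries, and in Mcm2 and Mcm5 the libraries of mice 2 and 4 did, with Mcm2 replicate 1 just under the lowest DMSO library. Pcna had the smallest p of the 39 genes, at -0.37 ± 0.12 (adjusted p = 0.0517; 0.039 with DESeq2). The values were -0.47 ± 0.19 for Mcm2 (adjusted p = 0.138) and -0.54 ± 0.24 for Mcm5 (adjusted p = 0.176), and all 6 MCM genes lay between -0.54 and -0.21. Without replicates 2 and 4 of every group Pcna was at -0.17 (adjusted p = 0.551), Mcm5 at -0.02 and Mcm2 at 0.01.

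Of the genes that supply nucleotides, Rrm2, the regulated subunit of ribonucleotide reductase, had 19.3, 9.46, 23.1 and 12.6 CPM in SGC0946 cells, against 23.3, 21.1, 21 and 28.8 CPM in DMSO cells. Tyms, thymidylate synthase, had 7.21, 3.8, 5.87 and 4.92 CPM in SGC0946 cells, against 6.21, 7.82, 6.69 and 8.18 CPM in DMSO cells. Rrm2 had the largest change of the 39 genes, -0.56 ± 0.25, which did not pass (adjusted p = 0.183), and Tyms was at -0.42 ± 0.19 (adjusted p = 0.191). Ccne1, the cyclin E1 gene, had 5.12, 3.06, 4.69 and 2.71 CPM in SGC0946 cells, against 5.37, 4.51, 4.3 and 5.7 CPM in DMSO cells. Ccne2, its close relative, had 10.5, 9.09, 12.9 and 8.7 CPM in SGC0946 cells, against 10.9, 10.1, 9.39 and 16.1 CPM in DMSO cells. Neither cyclin E gene passed (adjusted p = 0.36 for Ccne1 and 0.582 for Ccne2), and the lowest libraries were again SGC0946 replicates 2 and 4.

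E2f1, a transcription factor that switches on replication genes, had 28.8, 28.2, 29.7 and 27.1 CPM in SGC0946 cells, against 33.1, 35.5, 32.6 and 33.5 CPM in DMSO cells. All 4 SGC0946 libraries lay below all 4 DMSO libraries, replicates 1 and 3 included. The change was -0.25 ± 0.08 (adjusted p = 0.0656; 0.0363 with DESeq2), and -0.16 without replicates 2 and 4 of every group (adjusted p = 0.664). Cdc6, which loads the helicase at origins, had 3.73, 2.16, 3.07 and 2.85 CPM in SGC0946 cells, against 3.69, 4.57, 3.66 and 4.88 CPM in DMSO cells. That was a change of -0.52 ± 0.18 (adjusted p = 0.0835), with SGC0946 replicate 1 inside the DMSO range.

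**Figure D2:**
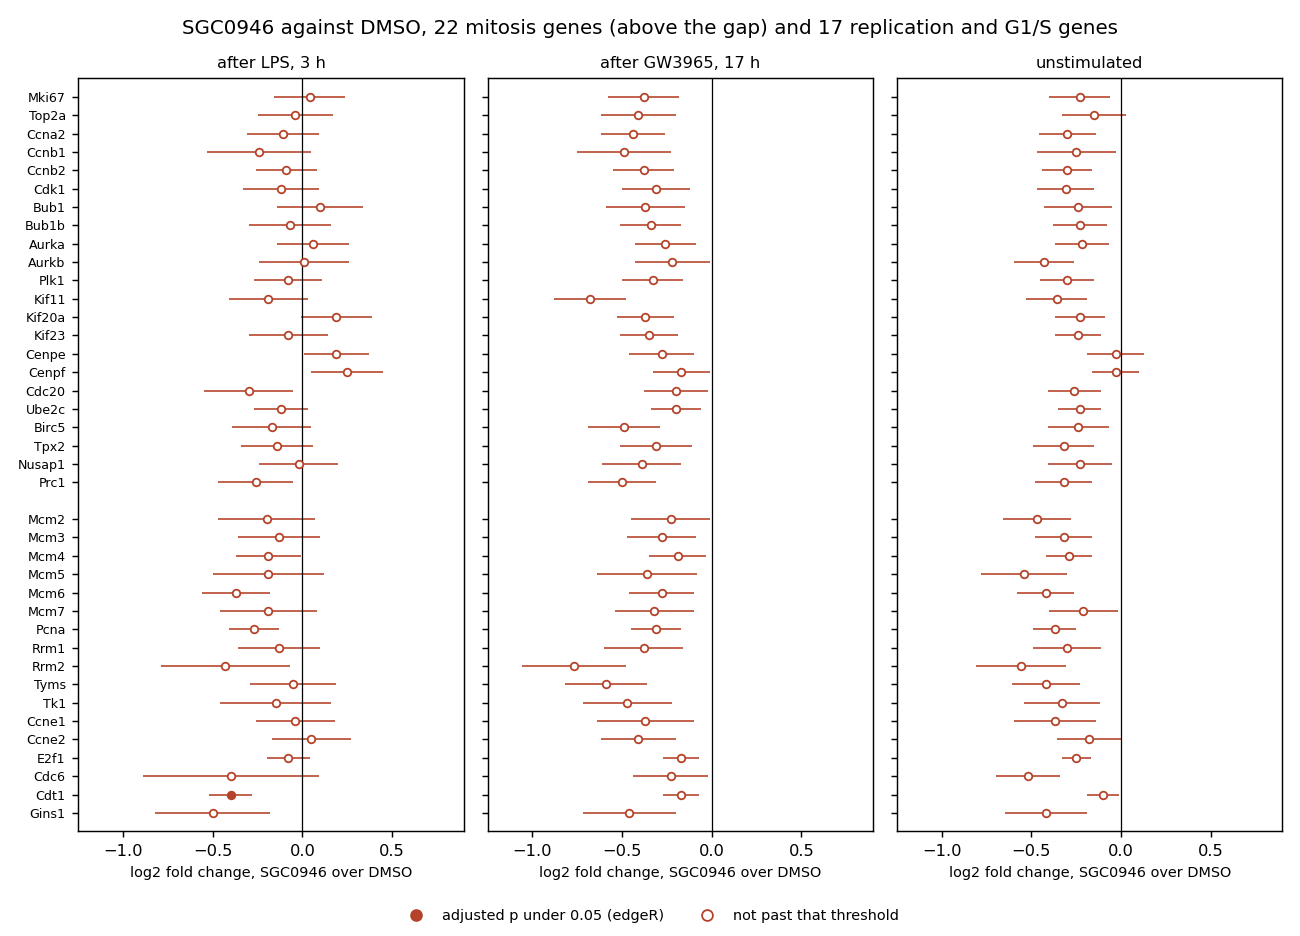
Log2 fold change, with bars of ± 1 SE, of each of the 39 genes with SGC0946 over DMSO after LPS, after GW3965 and without a stimulus; a filled point passed edgeR's adjusted p of 0.05 and an open one did not. Cdt1 after LPS (-0.40) is the only filled point among the 3 panels, and all 39 points lie below 0 without a stimulus and after GW3965.

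After LPS, 1 of the 39 genes differed between the inhibitor arms. Cdt1, the licensing factor that brings the MCM helicase to origins together with Cdc6, was lower in SGC0946+LPS cells, while 7.13% of all genes tested were called in either direction and 3.26% were lower. It had 19.9, 22.6 and 19.6 CPM in SGC0946+LPS replicates 1 to 3, against 28.4, 27.9 and 25.7 CPM in DMSO+LPS replicates 1 to 3. The groups did not overlap, and mouse 2 had the highest of the SGC0946+LPS values. Cdt1 fell by 0.40 ± 0.12 on the log2 scale (adjusted p = 0.0405; 0.0427 with the mouse as a block, in which 4.45% of all genes were lower). The call was lost with library totals in place of TMM (0.0505), with only the compared groups in the fit (0.0656), and without replicate 1 (0.105) or 3 (0.12) of SGC0946+LPS, or without replicate 1 (0.11), 2 (0.126) or 3 (0.0521) of DMSO+LPS. In unstimulated cells Cdt1 was at 26.2 ± 2.18 CPM with SGC0946 and 28 ± 3.57 CPM with DMSO (SD, n = 4 each).

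None of the other 38 genes passed, and the median over the 39 was -0.12 (-0.08 for mitosis and -0.19 for replication), with 31 negative changes. The lowest change was that of Gins1 of the GINS helicase complex, at -0.50, which did not pass. The 3 genes whose groups did not overlap were Cdt1, Pcna and Mcm6, all lower, against 11.7% of all genes. Pcna had 108, 86 and 99.8 CPM in SGC0946+LPS cells, against 126, 114 and 116 CPM in DMSO+LPS cells (-0.27 ± 0.14, adjusted p = 0.251). Mcm6 of the helicase had 79.2, 51.6 and 84.5 CPM in SGC0946+LPS cells, against 98.6, 92.7 and 84.7 CPM in DMSO+LPS cells (-0.37 ± 0.19, adjusted p = 0.266). The lowest library was SGC0946+LPS replicate 2 in both. That library was low over both classes, with a mitosis median of -0.41 and a replication median of -0.58 against DMSO+LPS, while replicates 1 and 3 stood at 0.08 and 0.14 for mitosis and at -0.01 each for replication. Without replicates 2 and 4 of every group the median of the 39 was 0.08 and 1 gene was called, Cenpe, which was higher by 0.37 (adjusted p = 0.0281). That fit called 529 of 11970 genes, 274 of them higher. The macrophage markers of SGC0946+LPS replicate 2 summed to 18807 CPM, against 16083 and 15353 CPM in replicates 1 and 3 and 18135 to 19320 CPM in DMSO+LPS; granulocyte precursor markers summed to 15.4 to 21 CPM in SGC0946+LPS and 55.1 to 65.6 CPM in DMSO+LPS libraries. The part of these markers in the result was not tested.

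The libraries of single mitosis genes followed that pattern. Mki67 had 338, 233 and 394 CPM in SGC0946+LPS cells, against 332, 276 and 330 CPM in DMSO+LPS cells. Top2a had 189, 120 and 207 CPM in SGC0946+LPS cells, against 185, 177 and 166 CPM in DMSO+LPS cells. Ccnb1 had 15.9, 7.46 and 15 CPM in SGC0946+LPS cells, against 15.7, 15.8 and 13.3 CPM in DMSO+LPS cells. In each, mouse 2 with SGC0946+LPS was the lowest library and the other SGC0946+LPS libraries lay within or above the DMSO+LPS range. Cdk1 had 36.9, 28.6 and 40.1 CPM in SGC0946+LPS cells, against 38.9, 39.3 and 35.7 CPM in DMSO+LPS cells. Plk1 had 22.8, 19.2 and 24.4 CPM in SGC0946+LPS cells, against 23.6, 23.3 and 22.8 CPM in DMSO+LPS cells. Cdc20 departed from the pattern, with 7.2, 9.02 and 7.34 CPM in SGC0946+LPS cells, against 11.5, 8.2 and 9.83 CPM in DMSO+LPS cells, and there mouse 2 had the highest of the SGC0946+LPS values. None of the 6 passed, with changes between -0.30 for Cdc20 and 0.04 for Mki67.

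Replication genes after LPS were low in the same library. Mcm2 had 11.8, 7.58 and 11.6 CPM in SGC0946+LPS cells, against 13.4, 11.6 and 10.4 CPM in DMSO+LPS cells. Mcm5 had 26.7, 14.1 and 28 CPM in SGC0946+LPS cells, against 31.1, 26.2 and 20.5 CPM in DMSO+LPS cells. Rrm2 had 10.6, 6.01 and 12 CPM in SGC0946+LPS cells, against 14, 14.2 and 9.41 CPM in DMSO+LPS cells. SGC0946+LPS replicate 2 was the lowest in each of them, and the groups overlapped. Tyms had 9.03, 5.53 and 9.91 CPM in SGC0946+LPS cells, against 8.73, 8.41 and 7.89 CPM in DMSO+LPS cells. Ccne1 had 23.2, 12 and 18.4 CPM in SGC0946+LPS cells, against 20.5, 19.9 and 14.5 CPM in DMSO+LPS cells. For Ccne2, E2f1 and Cdc6 mouse 2 was not the lowest library. Ccne2 had 10.9, 13.1 and 13.3 CPM in SGC0946+LPS cells, against 12.3, 11.4 and 12.3 CPM in DMSO+LPS cells. E2f1 had 14.8, 13.8 and 13.8 CPM in SGC0946+LPS cells, against 18.3, 14 and 12.9 CPM in DMSO+LPS cells. Cdc6 had 0.61, 0.722 and 0.171 CPM in SGC0946+LPS cells, against 0.546, 0.639 and 0.969 CPM in DMSO+LPS cells, and its lowest library held 1 count. None of these 8 genes passed, and their changes lay between -0.43 for Rrm2 and 0.05 for Ccne2.

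After GW3965 the 39 genes again had lower means with SGC0946 than with DMSO, and none passed the test. The median change was -0.35 (-0.36 for mitosis and -0.32 for replication, range of all -0.77 to -0.17), and 39 of 39 were negative, against 49.6% of all genes tested. With edgeR 0 of 39 were called, against 3.64% of all genes in either direction and 1.4% that were lower. An unadjusted p under 0.05 was found for 10 of them (7 mitosis and 3 replication). The share of all genes at that level is not given here, so this count is a description only. DESeq2 called 1, Kif11, against 575 of 12013 genes, 240 of them lower. In this comparison all 3 DMSO+GW3965 libraries carry the word reanalyzed in their titles and no SGC0946+GW3965 library does, so that difference and the inhibitor cannot be told apart. SGC0946+GW3965 replicate 2 was low, with a mitosis median of -0.88 and a replication median of -0.76 against DMSO+GW3965. Replicates 1 and 3 stood at -0.23 and -0.10 for mitosis and at -0.24 and -0.01 for replication. Without replicates 2 and 4 of every group the median of the 39 was -0.10, with 35 negative. Macrophage markers summed to 14817 CPM in SGC0946+GW3965 replicate 2, against 12761 and 12088 CPM in replicates 1 and 3 and 13972 to 14836 CPM in DMSO+GW3965. Of that list Cd68, Itgam and C1qa were highest in SGC0946+GW3965 replicate 3, and the others in replicate 2. Granulocyte precursor markers summed to 2.92 to 5.69 CPM in SGC0946+GW3965 and 27.9 to 41 CPM in DMSO+GW3965 libraries, and the part of these markers in the result was not tested.

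Kif11, the kinesin that pushes spindle poles apart, had the smallest p. Its values were 49.3, 30.6 and 55 CPM in SGC0946+GW3965 cells, against 61.6, 77.5 and 76.6 CPM in DMSO+GW3965 cells, with no overlap and mouse 2 the lowest. The change was -0.68 ± 0.20 (adjusted p = 0.0632), and it passed with DESeq2 (0.0287), with the mouse as a block (-0.70, adjusted p = 0.0242; 2.55% of all genes were lower), and, at -0.40, without replicates 2 and 4 of every group (0.0493), but not without mouse 2 alone (-0.40, adjusted p = 0.369). The fit without replicates 2 and 4 of every group called 250 of 11970 genes, 108 of them lower. No overlap was seen in 8 genes, all lower, against 10.4% of all genes; they were Ccnb1, Ccnb2, Kif11, Kif23, Birc5 and Nusap1 of mitosis, and Tyms and Gins1 of replication. Mki67 had 221, 148 and 262 CPM in SGC0946+GW3965 cells, against 245, 288 and 290 CPM in DMSO+GW3965 cells. Top2a had 170, 102 and 179 CPM in SGC0946+GW3965 cells, against 173, 210 and 216 CPM in DMSO+GW3965 cells. Ccnb1 had 16, 7.25 and 14.7 CPM in SGC0946+GW3965 cells, against 17.9, 18.4 and 17.1 CPM in DMSO+GW3965 cells. The library of mouse 2 was the lowest of the 6 in all 3 genes. Cdk1 had 36.6, 23.2 and 45.7 CPM in SGC0946+GW3965 cells, against 37.8, 48 and 45.1 CPM in DMSO+GW3965 cells. Plk1 had 27.9, 17.9 and 33.3 CPM in SGC0946+GW3965 cells, against 31.9, 33.7 and 33.4 CPM in DMSO+GW3965 cells. Cdc20 had 27.4, 15.8 and 29.5 CPM in SGC0946+GW3965 cells, against 26.1, 29.2 and 28.1 CPM in DMSO+GW3965 cells. Here too mouse 2 with SGC0946 was the lowest, and at least 1 of replicates 1 and 3 lay within or above the DMSO+GW3965 range.

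Helicase and clamp genes overlapped between the arms after GW3965. Mcm2 had 20.9, 15.9 and 27.3 CPM in SGC0946+GW3965 cells, against 18.9, 26.2 and 29.9 CPM in DMSO+GW3965 cells. Mcm5 had 27.4, 15 and 35.7 CPM in SGC0946+GW3965 cells, against 29.2, 33.2 and 37.8 CPM in DMSO+GW3965 cells. Pcna had 65.3, 50.6 and 79.7 CPM in SGC0946+GW3965 cells, against 76.5, 80 and 85 CPM in DMSO+GW3965 cells. All 3 genes overlapped and none passed (adjusted p = 0.668, 0.566 and 0.259 in that order). Rrm2 had 16.9, 8.71 and 20.5 CPM in SGC0946+GW3965 cells, against 19.5, 27.4 and 31.7 CPM in DMSO+GW3965 cells, the largest change of the 39 (-0.77 ± 0.29, adjusted p = 0.172). Tyms had 5.05, 3.11 and 5.84 CPM in SGC0946+GW3965 cells, against 6.56, 6.24 and 8.11 CPM in DMSO+GW3965 cells (-0.59 ± 0.23, adjusted p = 0.195). Both nucleotide genes had their lowest value in mouse 2 with SGC0946. Ccne1 had 4.03, 2.76 and 4.83 CPM in SGC0946+GW3965 cells, against 4.49, 4.87 and 5.57 CPM in DMSO+GW3965 cells. Ccne2 had 10, 6.73 and 12.4 CPM in SGC0946+GW3965 cells, against 10.7, 13 and 15 CPM in DMSO+GW3965 cells. E2f1 varied less, with 28.1, 26.3 and 33 CPM in SGC0946+GW3965 cells, against 32.1, 34 and 32.4 CPM in DMSO+GW3965 cells. Cdc6 had 3.34, 3.19 and 4.63 CPM in SGC0946+GW3965 cells, against 4.02, 4.79 and 4.22 CPM in DMSO+GW3965 cells. These 4 genes overlapped between the arms and did not pass.

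**Figure D3:**
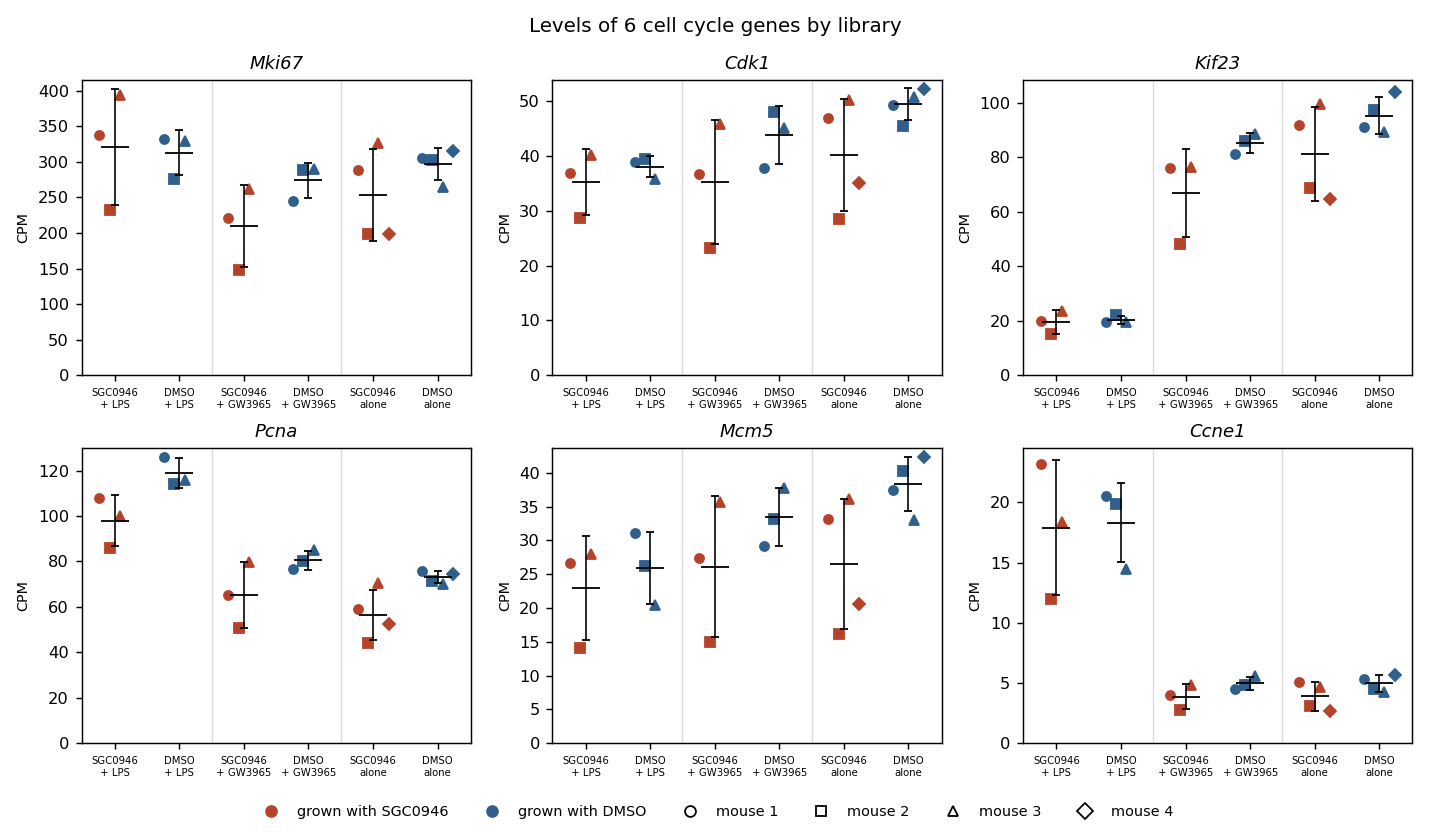
CPM by library of Mki67, Cdk1, Kif23, Pcna, Mcm5 and Ccne1 in the 6 groups, with points for libraries and bars for the mean ± SD (n = 3 or 4). Kif23 lies at 15.2 to 23.6 CPM in every LPS library and at 48.1 to 104 CPM in the others, Ccne1 lies at 12 CPM or more only after LPS, and mice 2 and 4 give the low SGC0946 points.

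Many more of these genes were called after LPS than between the inhibitor arms, and not all in 1 direction. In DMSO cells 21 of 39 were lower and 4 higher after 3 h of LPS (13 lower and 2 higher of mitosis, 8 lower and 2 higher of replication), against 38.7% lower and 35.4% higher among all genes tested, 74.1% in all. In SGC0946 cells 21 were lower and 5 higher (12 and 2 of mitosis, 9 and 3 of replication), against 38.8% lower and 35.8% higher, 74.6% in all. Without overlap between the groups, 12 members lay below and 3 above in SGC0946 cells (36.7% and 33.9% of all genes), and 26 below and 4 above in DMSO cells (38.9% and 36% of all genes). With the mouse as a block 23 were lower in DMSO cells, against 39.1% of all genes. Granulocyte precursor markers, summed, were at 15.4 to 21 CPM in SGC0946+LPS and 2.08 to 8.27 CPM in SGC0946 libraries. In the DMSO arm they were at 55.1 to 65.6 CPM with LPS and 31.2 to 42 CPM without. Of that list Lcn2 rose most, from a mean of 0.252 to 11.3 CPM with SGC0946 and of 3.16 to 17.9 CPM with DMSO. Ltf fell, from 1.2 to 0.46 CPM and from 7.09 to 4.65 CPM in that order of arms. S100a8, S100a9, Ngp and Camp rose by less, and Elane, Mpo, Prtn3 and Ctsg had means of at most 0.426 CPM. The part of these markers was not tested. The median change of the 39 genes was -0.44 in SGC0946 cells and -0.63 in DMSO cells, with -0.07 for all genes in each. Of the lower genes 20 were shared, 95.2% of those in either arm, with Cdt1 lower in SGC0946 cells alone and Bub1 in DMSO cells alone. The share of shared calls was not taken over all genes, so 95.2% is a description only. All 4 genes higher in DMSO cells (Ccne1, Pcna, Cenpe and Tpx2) were higher in SGC0946 cells, where Tyms was the other one. The counts depended on the scaling. TMM factors were 0.686 to 0.716 in LPS libraries and 1.14 to 1.19 in the others. With library totals only, the median of all genes was -0.81 in SGC0946 cells and -0.80 in DMSO cells. In these fits 33 members were lower and 1 higher with SGC0946, and 35 lower and 1 higher with DMSO. Of all 12013 genes 8699 were lower and 1977 higher with SGC0946, and 8674 lower and 1980 higher with DMSO. Relative to the all-gene median, 11 members lay above and 28 below under both scalings in both arms. Under library totals Ccne1 was the 1 that stayed higher, while in DMSO cells Pcna went to -0.03, Cenpe to -0.00 and Tpx2 to -0.28, and in SGC0946 cells Tpx2 to -0.11 and Tyms to -0.16.

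The deepest falls among mitosis genes were those of Kif23, Bub1b, Cdc20 and Cenpf in both arms. Kif23, the kinesin of the central spindle, had 20.1, 15.2 and 23.6 CPM in SGC0946+LPS cells, against 92, 68.6, 99.4 and 64.7 CPM in SGC0946 cells. In the DMSO arm Kif23 had 19.6, 22 and 19.5 CPM in DMSO+LPS cells, against 91, 97.3, 89.2 and 104 CPM in DMSO cells. The groups were far apart in both arms, and Kif23 fell by 2.06 ± 0.18 with SGC0946 (adjusted p = 8.32e-10) and by 2.22 ± 0.17 with DMSO (adjusted p = 1.53e-10). Bub1b, the checkpoint kinase-like protein BubR1, had 13.9, 11.9 and 16.4 CPM in SGC0946+LPS cells, against 54.8, 38.3, 64.8 and 40.1 CPM in SGC0946 cells. It had 15.1, 15.2 and 13.3 CPM in DMSO+LPS cells, against 59.8, 59.6, 53.3 and 57.9 CPM in DMSO cells. Bub1b fell by 1.82 ± 0.19 with SGC0946 (adjusted p = 2.24e-08) and by 1.98 ± 0.19 with DMSO (adjusted p = 4.04e-09), again with no overlap.

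Cenpf, a kinetochore protein of late cell cycle, had 22.3, 20.3 and 32.8 CPM in SGC0946+LPS cells, against 69.5, 55.9, 83 and 59.2 CPM in SGC0946 cells. It had 17.9, 21.5 and 22.8 CPM in DMSO+LPS cells, against 65.2, 70.5, 66.2 and 70.2 CPM in DMSO cells. Every LPS library lay below every unstimulated one, a fall of 1.43 ± 0.17 with SGC0946 (adjusted p = 1.06e-07) and of 1.71 ± 0.17 with DMSO (adjusted p = 7.6e-09). Cdc20 was at 7.2 to 9.02 CPM in SGC0946+LPS and 22.1 to 34 CPM in SGC0946 cells. In the DMSO arm it was at 8.2 to 11.5 CPM in DMSO+LPS and 31 to 38.7 CPM in DMSO cells. Cdc20 fell by 1.84 ± 0.21 with SGC0946 (adjusted p = 6.85e-08) and by 1.80 ± 0.20 with DMSO (adjusted p = 4.29e-08). Kif20a, a kinesin of cytokinesis, fell by 1.23 with SGC0946 and 1.64 with DMSO. The Aurora kinase genes fell in both arms too, Aurkb by 0.93 with SGC0946 and 1.37 with DMSO, and Aurka by 0.70 and 0.98 in that order of arms.

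The other mitosis genes differed in direction on the TMM scale. Mki67 had a change of 0.34 ± 0.18 with SGC0946 (adjusted p = 0.0962) and 0.07 ± 0.18 with DMSO (adjusted p = 0.734). Top2a was at -0.15 with SGC0946 and -0.27 with DMSO, and Ccnb1 at -0.30 in each, none of which passed. Mean RPKM, which uses library totals, was lower with LPS in these 3 genes. DMSO cells without and with LPS had 29.9 and 19.36 RPKM for Mki67, 41.4 and 21.17 for Top2a, and 8.09 and 4.04 for Ccnb1. SGC0946 cells had 25.27 and 18.85, 37.07 and 19.58, and 6.85 and 3.28 RPKM in that order. On the TMM scale Cdk1 was at -0.19 with SGC0946 (adjusted p = 0.372) and at -0.38 with DMSO (adjusted p = 0.0713; 0.038 with the mouse as a block). Plk1 fell by 0.49 with SGC0946 (adjusted p = 0.0158) and by 0.72 with DMSO (adjusted p = 0.000737). Cenpe, the kinesin that moves chromosomes to the spindle equator, was at 145 ± 41.8 CPM in SGC0946+LPS and 75.1 ± 16.4 CPM in SGC0946 cells. In the DMSO arm it was at 126 ± 10.1 CPM in DMSO+LPS and 76.2 ± 4.29 CPM in DMSO cells (SD, n = 3 and 4 in each arm). Cenpe rose by 0.94 ± 0.17 with SGC0946 (adjusted p = 2.89e-05) and by 0.73 ± 0.17 with DMSO (adjusted p = 0.000482), calls that were not made with library totals. Tpx2, which activates Aurora A on the spindle, rose by 0.63 with SGC0946 (adjusted p = 0.00487) and by 0.45 with DMSO (adjusted p = 0.0313), likewise not with library totals. Ube2c, Nusap1 and Ccnb2 lay between -0.16 and 0.14 in both arms and did not pass.

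Among the 17 replication genes, Cdc6 had the largest fall and Ccne1 the largest rise in each arm. Ccne1 was at 12 to 23.2 CPM in SGC0946+LPS and 2.71 to 5.12 CPM in SGC0946 cells. In the DMSO arm it was at 14.5 to 20.5 CPM in DMSO+LPS and 4.3 to 5.7 CPM in DMSO cells. Ccne1 rose by 2.22 ± 0.23 with SGC0946 (adjusted p = 1.17e-08) and by 1.88 ± 0.21 with DMSO (adjusted p = 6.87e-08), with no overlap, while Ccne2 was at 0.27 and 0.04 in that order of arms and did not pass. Cdc6 fell by 2.43 ± 0.34 with SGC0946 (adjusted p = 1.28e-06) and by 2.55 ± 0.29 with DMSO (adjusted p = 8.34e-08), to 0.501 ± 0.291 CPM in SGC0946+LPS and 0.718 ± 0.222 CPM in DMSO+LPS cells (SD, n = 3 each). E2f1 fell to 14.1 ± 0.538 CPM in SGC0946+LPS, against 28.4 ± 1.1 CPM in SGC0946 cells, and to 15 ± 2.86 CPM in DMSO+LPS, against 33.7 ± 1.27 CPM in DMSO cells. These were falls of 1.00 ± 0.10 with SGC0946 (adjusted p = 1.19e-08) and 1.17 ± 0.10 with DMSO (adjusted p = 6.58e-10).

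The MCM genes did not move alike. Mcm2 fell by 0.85 with SGC0946 and 1.11 with DMSO, Mcm3 by 1.00 and 1.19, Mcm4 by 0.54 and 0.64, and Mcm7 by 0.81 and 0.83 in that order of arms. Mcm5 did not pass in either arm (-0.21 with SGC0946, adjusted p = 0.5; -0.56 with DMSO, adjusted p = 0.0666 and 0.0314 with the mouse as a block), nor did Mcm6, at 0.22 with SGC0946 and 0.17 with DMSO. Pcna rose by 0.80 ± 0.13 with SGC0946 (adjusted p = 9.36e-06) and by 0.70 ± 0.12 with DMSO (adjusted p = 3.31e-05), but not with library totals (0.686 and 0.835 in that order of arms). On the RPKM scale, which uses library totals, Pcna was at 46.25 ± 5.53 in SGC0946+LPS and 45.4 ± 8.93 in SGC0946 cells, and at 59.06 ± 3.64 in DMSO+LPS and 59.01 ± 2.79 in DMSO cells. Rrm2 fell by 0.77 ± 0.32 with SGC0946 (adjusted p = 0.0355) and by 0.90 ± 0.29 with DMSO (adjusted p = 0.00919), and Tk1, thymidine kinase, by 0.70 and 0.88. Tyms was called in SGC0946 cells alone, at 0.57 (adjusted p = 0.0246), against 0.20 in DMSO cells (adjusted p = 0.389).

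**Figure D4:**
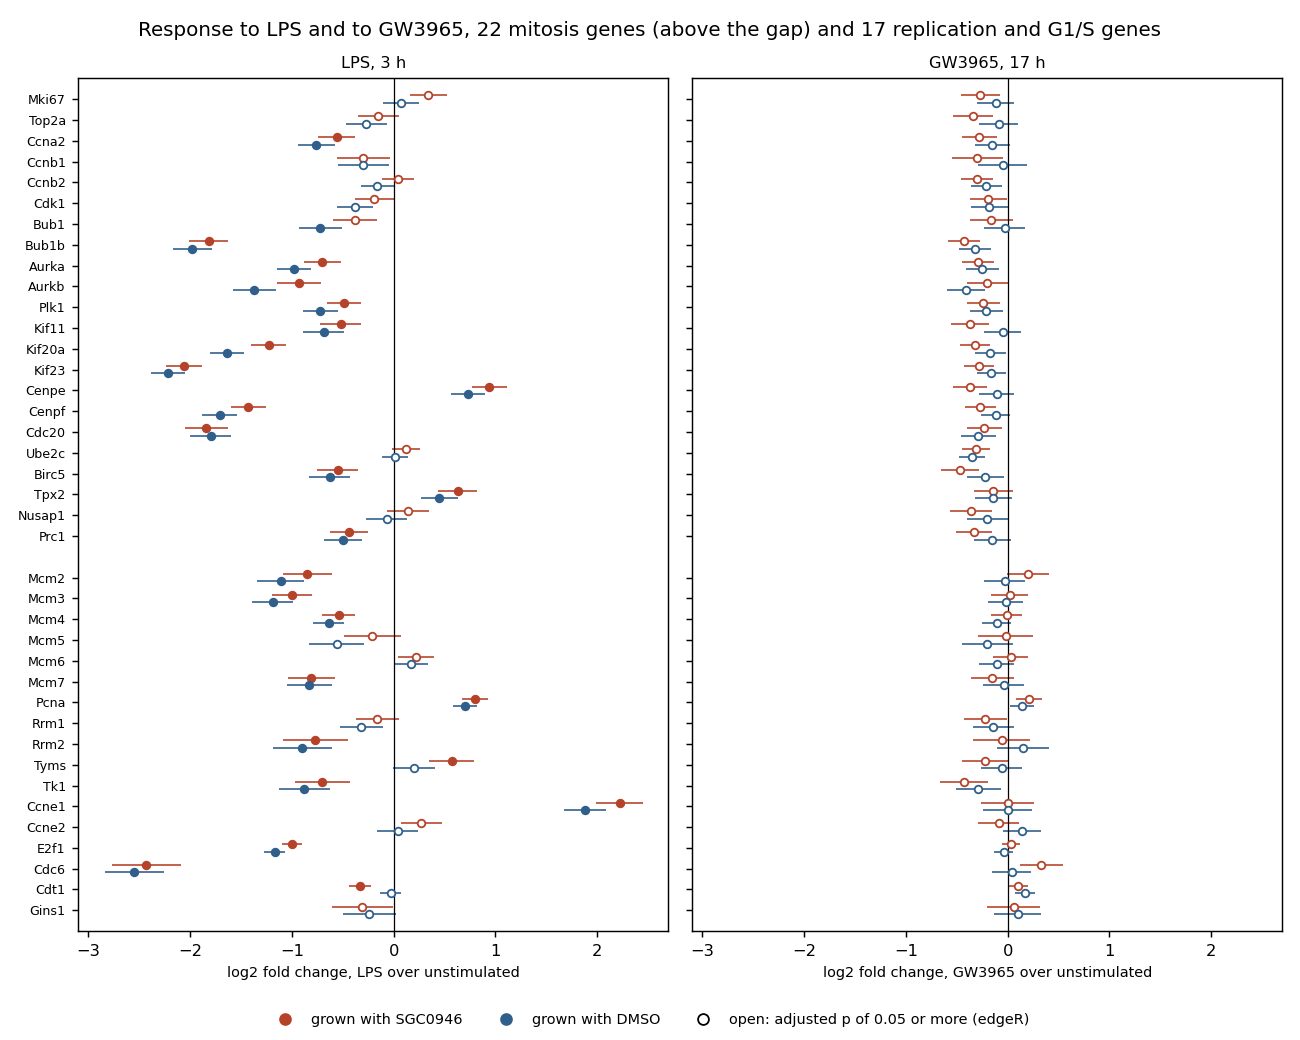
Log2 fold change ± SE of each of the 39 genes after LPS and after GW3965, with SGC0946 and DMSO cells side by side. Kif23, Bub1b, Cdc20, Cenpf and Cdc6 lie between -2.55 and -1.43 after LPS in both arms and Ccne1 at 2.22 and 1.88, whereas after GW3965 all changes lie between -0.47 and 0.33.

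Whether SGC0946 altered the LPS response was tested as the difference of the responses, and 0 of 39 genes passed with edgeR (0.00832% of all genes; 0 members at an unadjusted p under 0.05 and 0 with DESeq2). The differences had a median of 0.18, with 36 of 39 positive, and a range of -0.30 (Cdt1, ± 0.15, adjusted p = 0.723) to 0.44 (Aurkb, ± 0.31, adjusted p = 0.858). This contrast shares the unstimulated libraries with the comparisons above, in which SGC0946 replicates 2 and 4 are low. Its median was 0.00 without replicates 2 and 4 of every group, with 19 of 39 negative. Of the LPS calls, 22 of 25 in DMSO cells and 17 of 26 in SGC0946 cells were kept when each library was left out in turn. In DMSO cells the call of Rrm2 was lost without DMSO+LPS replicate 3 (0.0547), as was that of Prc1, which bundles spindle fibres (0.0859). Tpx2 was lost without DMSO+LPS replicate 1 (0.0975) or 2 (0.0645) or DMSO replicate 1 (0.0733) or 3 (0.0643). In SGC0946 cells, leaving out SGC0946+LPS replicate 2 ended the calls of Birc5, Ccna2, Kif11, Mcm4, Plk1, Prc1, Rrm2 and Tk1, with adjusted p from 0.0566 for Ccna2 to 0.202 for Rrm2. Leaving out SGC0946+LPS replicate 1 ended those of Kif11 (0.0503) and Prc1 (0.0922), and replicate 3 that of Tk1 (0.0868). Leaving out SGC0946 replicate 1 or 3 ended those of Birc5, Kif11, Prc1 and Rrm2, and replicate 3 also those of Plk1 and Tk1, with adjusted p from 0.0527 for Birc5 to 0.15 for Prc1. Tyms was lost without SGC0946+LPS replicate 1 (0.114) or 3 (0.128) or SGC0946 replicate 2 (0.082) or 4 (0.0552). Since 3 DMSO libraries are titled reanalyzed and no LPS library is, the LPS response of DMSO cells was also taken without them, which leaves 1 DMSO library. That library, replicate 4, had the highest median over the 39 genes among the DMSO libraries, at 0.13 from their mean. The calls of Birc5, Bub1, Prc1, Cenpe and Tpx2 were not kept in that fit. Changes in that fit were -0.72 for Birc5, -0.80 for Bub1, -0.63 for Prc1, 0.68 for Cenpe and 0.35 for Tpx2. With all libraries they were -0.63, -0.72, -0.50, 0.73 and 0.45 in that order of genes.

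GW3965 for 17 h changed none of the 39 genes past the threshold. In DMSO cells 0 were called by edgeR, against 2.55% of all genes in either direction, with 2 at an unadjusted p under 0.05 and 0 with DESeq2. In SGC0946 cells 0 were called, against 2.42% of all genes, with 5 at an unadjusted p under 0.05 and 0 with DESeq2. The counts at an unadjusted p are a description only, since the share of all genes at that level is not given here. The means of mitosis genes were lower and those of replication genes were close to unstimulated cells. All 22 mitosis genes had a negative change in each arm, with a median of -0.29 in SGC0946 cells and -0.17 in DMSO cells, while the 17 replication genes had medians of 0.00 and -0.03 in that order of arms. The medians of all genes were -0.00 and -0.01. In DMSO cells 8 mitosis genes lay wholly below (Bub1b, Aurka, Aurkb, Plk1, Kif23, Cdc20, Ube2c and Nusap1; 9.56% of all genes) and Pcna and Cdt1 wholly above (10.2%); in SGC0946 cells the groups of all 39 genes overlapped, while 5.22% of all genes lay wholly below and 5.64% wholly above.

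Ube2c, the ubiquitin enzyme of mitotic exit, had the smallest p in DMSO cells, at -0.35 ± 0.13 (adjusted p = 0.171), followed by Aurkb at -0.41 ± 0.19 (adjusted p = 0.286). In SGC0946 cells Bub1b had the smallest p, at -0.43 ± 0.16 (adjusted p = 0.222). Fitted with only the compared groups, in which 888 of 11450 genes were called and 463 were lower, 4 members passed in DMSO cells, Aurkb (-0.41, adjusted p = 0.00384), Bub1b (-0.32, adjusted p = 0.00541), Ube2c (-0.35, adjusted p = 0.0131) and Cdc20 (-0.30, adjusted p = 0.0436). Without replicates 2 and 4 of every group, 9 were lower in SGC0946 cells, in a fit that called 178 of 11970 genes, 80 of them lower. They were led by Nusap1, which binds spindle microtubules (-0.50, adjusted p = 0.0099), and by Ccnb2, cyclin B2 (-0.41, adjusted p = 0.0171). The difference of the GW3965 responses between the arms had a median of -0.09, and 0 genes passed with edgeR (0% of all genes; 0 members at an unadjusted p under 0.05 and 0 with DESeq2).

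Regulators of the same pathway outside the 39 were read from 6 lists. In unstimulated cells the inhibitor changed 5 of them, where 8.72% of all genes were called. Of 6 tested CDK inhibitors 2 were higher, of 12 RB and E2F genes 1 was lower, and of 16 checkpoint genes 2 were higher. With edgeR 0 of 6 G1 cyclins and CDKs, 0 of 8 transcription factors and 0 of 21 further replication genes passed. At an unadjusted p under 0.05 stood 3, 1 and 5 genes of these last lists, against 2737 of all 12013 genes, and DESeq2 called 0 in each. With the mouse as a block 10 passed, in a fit that called 1481 of 12013 genes; the 5 added were lower in SGC0946 cells, namely Ccnd1 (-0.52, adjusted p = 0.00444), Cdkn2c (-0.51, adjusted p = 0.013), Lin9 (-0.30, adjusted p = 0.0349), Cdc25a (-0.36, adjusted p = 0.0221) and Ccng1 (-0.17, adjusted p = 0.017). Ccnd1, cyclin D1, with 23.4% of its exon length over a gene on the other strand, was lower in that fit after LPS (-0.54, adjusted p = 0.0285) and after GW3965 (-0.51, adjusted p = 0.0214) as well, and was not called in any of the 3 without the block. Gadd45a, a stress gene that restrains CDK1, had 92.1, 87.1, 76.7 and 88 CPM in SGC0946 cells, against 60.6, 50.5, 56.2 and 58.2 CPM in DMSO cells. All SGC0946 libraries lay above all DMSO libraries, and Gadd45a rose by 0.61 ± 0.07 (adjusted p = 1.66e-05; 0.54, adjusted p = 0.0113, without replicates 2 and 4 of every group). After GW3965 it rose by 0.59 ± 0.08 with SGC0946 over DMSO (adjusted p = 0.000193), at 111, 109 and 96.9 CPM in SGC0946+GW3965 cells against 76.5, 69.4 and 63.9 CPM in DMSO+GW3965 cells. Of the calls between the inhibitor arms in these lists, these 2 were the ones that held under every alternative tried. Of Gadd45a, 19.1% of the exon length lies over a gene on the other strand.

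Cdkn2a, which encodes p16 and p19ARF, had 2, 2.01, 2.62 and 2 CPM in SGC0946 cells, against 1.01, 1.19, 0.876 and 0.675 CPM in DMSO cells, a rise of 1.18 ± 0.27 (adjusted p = 0.00803). After LPS it had 3.17, 1.8 and 2.22 CPM in SGC0946+LPS cells, against 0.818, 0.959 and 0.83 CPM in DMSO+LPS cells, a rise of 1.45 ± 0.37 (adjusted p = 0.0197). The libraries did not overlap in either case, but neither call held without replicates 2 and 4 of every group (1.29, adjusted p = 0.15, unstimulated; 1.72, adjusted p = 0.0651, after LPS). The call after LPS was also lost without SGC0946+LPS replicate 1 (0.0962) or any 1 of the DMSO+LPS libraries (0.0558 to 0.0638). E2f2, an activating E2F, had 18.9, 12, 16.4 and 13.9 CPM in SGC0946 cells, against 26.3, 21.7, 21.5 and 24.4 CPM in DMSO cells. E2f2 fell by 0.62 ± 0.12 (adjusted p = 0.00257), with no overlap and the lowest values in mice 2 and 4. Without replicates 2 and 4 of every group it was at -0.43 (adjusted p = 0.133). Without the reanalyzed libraries, which leaves 1 DMSO library, E2f2 was at -0.68 and unstimulated Cdkn2a at 1.65, and neither call was kept. After GW3965 E2f2 fell by 0.62 ± 0.14 (adjusted p = 0.0171), a call lost without SGC0946+GW3965 replicate 2 (0.109) or DMSO+GW3965 replicate 2 (0.0677) or 3 (0.0648).

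The remaining calls between the inhibitor arms were less stable. Cdkn1c, which encodes p57, rose by 0.69 ± 0.20 in unstimulated SGC0946 cells (adjusted p = 0.0345), and 30.7% of its exon length lies over a gene on the other strand. Its call was lost without SGC0946 replicate 1 (0.068), 3 (0.0759) or 4 (0.0721) or DMSO replicate 2 (0.101), 3 (0.065) or 4 (0.0904). Btg1, an antiproliferative gene, rose by 0.22 ± 0.06 (adjusted p = 0.0352), which was lost without SGC0946 replicate 2 (0.105) or 4 (0.13) or DMSO replicate 2 (0.125) or 4 (0.115). Without replicates 2 and 4 of every group Btg1 was at 0.04 (adjusted p = 0.897). Without the reanalyzed libraries, which leaves 1 DMSO library, Cdkn1c was at 0.75 and Btg1 at 0.29, and neither call was kept. After LPS the cyclin G genes differed, with Ccng2 higher by 0.25 (adjusted p = 0.0493) and Ccng1 lower, at -0.25 (adjusted p = 0.0296), in SGC0946 cells. Ccng1 was lost without SGC0946+LPS replicate 2 (0.133) or DMSO+LPS replicate 1 (0.137), and Ccng2 without SGC0946+LPS replicate 1 (0.0552) or 2 (0.28) or any DMSO+LPS library (0.0974 to 0.156). Without replicates 2 and 4 of every group Ccng2 was at 0.12 (adjusted p = 0.42) and Ccng1 at -0.23 (adjusted p = 0.116). After GW3965 the phosphatase gene Cdc25b was lower, at -0.34 (adjusted p = 0.0421), a call lost without SGC0946+GW3965 replicate 2 (0.226) or 3 (0.0684) or any DMSO+GW3965 library (0.0997 to 0.117).

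**Figure D5:**
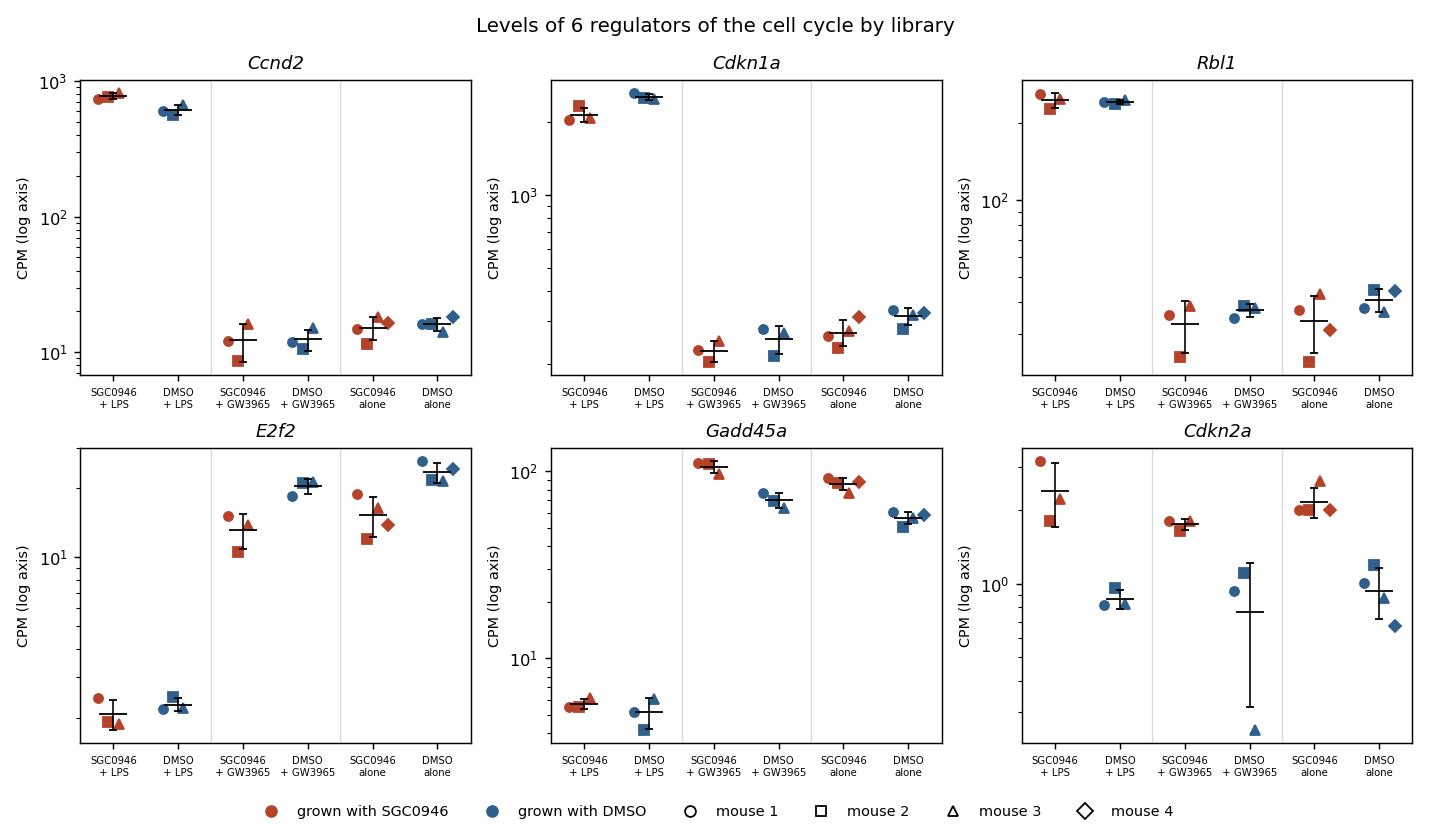
CPM by library, on a log axis, of Ccnd2, Cdkn1a, Rbl1, E2f2, Gadd45a and Cdkn2a in the 6 groups, with points for libraries and bars for the mean ± SD (n = 3 or 4). After LPS Ccnd2 lies at 566 to 816 CPM, against 11.4 to 18.2 CPM without a stimulus, and Gadd45a at 4.15 to 6.15 CPM; in SGC0946 cells Gadd45a and Cdkn2a lie above DMSO without a stimulus.

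After LPS, 35.8% of all genes were higher and 38.8% lower in SGC0946 cells, and 35.4% higher and 38.7% lower in DMSO cells, so list counts of calls both ways are given as a description. Of 6 G1 cyclins and CDKs, 2 rose and 3 fell in each arm. Ccnd2, cyclin D2, had 735, 771 and 816 CPM in SGC0946+LPS cells, against 14.9, 11.4, 18.1 and 16.4 CPM in SGC0946 cells. It had 599, 566 and 668 CPM in DMSO+LPS cells, against 16.1, 16, 14.2 and 18.2 CPM in DMSO cells. Ccnd2 rose by 5.68 ± 0.14 with SGC0946 (adjusted p = 3.92e-19) and by 5.24 ± 0.14 with DMSO (adjusted p = 1.08e-18). Its kinase Cdk6 rose by 1.76 with SGC0946 and 1.63 with DMSO, while Cdk4 (19.7% of exon length over a gene on the other strand) fell by 0.67 in each, Cdk2 by 1.41 and 1.31, and Ccnd3 by 0.26 and 0.30. Of 6 CDK inhibitors tested, 2 rose and 2 fell in each arm. Cdkn1a, which encodes p21, had 2044, 2322 and 2075 CPM in SGC0946+LPS cells, against 262, 233, 273 and 313 CPM in SGC0946 cells. It had 2635, 2512 and 2483 CPM in DMSO+LPS cells, against 335, 278, 320 and 325 CPM in DMSO cells. Cdkn1a rose by 2.99 ± 0.10 with SGC0946 (adjusted p = 4.14e-17) and by 3.02 ± 0.10 with DMSO (adjusted p = 3.6e-17), and Cdkn2d (p19) rose by 1.31 and 0.90, in DMSO cells not with library totals (0.177). Cdkn1b (p27) fell by 1.15 with SGC0946 and 1.32 with DMSO, and Cdkn2c (p18) by 0.99 and 1.21.

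Of 12 RB and E2F genes, 5 rose and 6 fell after LPS in each arm. Rbl1, which encodes the E2F repressor p107, had 260, 228 and 249 CPM in SGC0946+LPS cells, against 37.3, 23.3, 43.1 and 31.1 CPM in SGC0946 cells. It had 243, 239 and 247 CPM in DMSO+LPS cells, against 37.8, 44.5, 36.6 and 44 CPM in DMSO cells. Rbl1 rose by 2.87 ± 0.14 with SGC0946 (adjusted p = 2.91e-14) and by 2.57 ± 0.14 with DMSO (adjusted p = 1.46e-13), while Rbl2 (p130; 11.8% of exon length over a gene on the other strand) fell by 1.23 and 1.34. Of the E2F genes E2f5 rose by 1.52 with SGC0946 and 1.54 with DMSO and E2f2 fell by 2.85 and 3.35, and E2f3, at 0.72 and 0.79, was called with TMM but not with library totals. Tfdp2, a partner of E2F proteins, fell by 2.14 with SGC0946 and 2.27 with DMSO. Of 8 transcription factors, Mxd1, an antagonist of MYC, rose by 3.23 with SGC0946 and 3.51 with DMSO. The drivers of mitotic transcription fell, Mybl2 (B-MYB) by 1.09 with SGC0946 and 1.96 with DMSO and Foxm1 by 0.62 and 0.88. In SGC0946 cells the call of Mybl2 was lost without SGC0946+LPS replicate 1 (0.0543), and that of Foxm1 without SGC0946+LPS replicate 2 (0.15) or 3 (0.0562) or SGC0946 replicate 1 (0.0625) or 3 (0.0709). Lin54 of the MuvB complex was called higher in SGC0946 cells at 0.42 (adjusted p = 0.00424) and lower, at -0.32, with library totals. Of 16 checkpoint genes, 9 rose and 6 fell with SGC0946 and 8 rose and 7 fell with DMSO; Gadd45a fell by 3.92 with SGC0946 and 3.47 with DMSO, Chek2 by 2.58 and 2.43, and Cdc25b by 1.85 and 1.90, while Ccng2 rose by 2.12 and 1.97 and Atm by 1.49 and 1.54. Of 21 further replication genes, 2 rose and 9 fell with SGC0946, and 2 rose and 13 fell with DMSO. Those that rose were Rfc3 of the clamp loader, by 1.89 with SGC0946 and 1.66 with DMSO, and the origin firing gene Mcm10, by 1.69 with SGC0946 and also past the test with DMSO; Pold1, the catalytic subunit of polymerase delta, fell by 1.88 and 1.86. GW3965 called 3 of the genes of these lists in SGC0946 cells and 2 in DMSO cells, Ccnd3 (-0.32 and -0.34) and Gadd45a (0.30 and 0.31) in both and Cdc25b (-0.35) with SGC0946, and each call was lost in 1 or more alternatives.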

How the data were processed

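Messenger RNA of mouse bone marrow-derived macrophages was sequenced as 50 bp single-end reads in 20 libraries. The authors deposited read counts per RefSeq transcript and RPKM values, per the file headers. Reads were aligned with STAR 2.5.2b to mm10 and handled with SAMtools 1.3.1, per the submitters' processing notes; the counting tool, the annotation and the strand option were not given in the sources used here. Deposited RPKM values followed from the counts and 1 factor per library to within 3.1e-05 (relative) over 780 transcripts with at least 2000 counts, so both share the same library totals.

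Each symbol was represented by its most counted transcript (24342 symbols, 57.3% of counts); 305 transcripts without a name, 1.17% of counts, were left out. Genes were filtered with filterByExpr (minimum count 10), scaled by TMM and tested with edgeR 4.0.16 in R 4.3.3, with 1 mean per group over all 20 libraries and Benjamini-Hochberg adjustment over the 12013 genes; the common biological coefficient of variation was 8.87%. CPM relate a count to the TMM-scaled library total. Between groups that do not overlap, every library of one lies beyond every library of the other. DESeq2 1.42.0, other scalings, filters and fits that left out libraries were alternatives.

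Replicate numbers stand for mice in the deposited sample sheet, which is where the pairing comes from. Deviations from group means correlated at a median r of 0.205 (0.06 to 0.5) over the 46 pairs of libraries with the same number, 39 of them over 0.1, and at -0.12 (-0.41 to 0.26) over the 120 other pairs. Deviations within a group sum to 0, which pushes the other pairs below 0 where same-number pairs lie above it. The other pairs are therefore no separate contrast for the pairing. Nothing says how many cultures were made per mouse. Values in every library are given for 15 members chosen by role, and for the 3 members of a class with the smallest p in a comparison in which 1 of the class passed; genes of the 6 further lists are named where they passed, at most 4 per list and direction, and Aurkb, Kif11, Cenpe and the genes at either end of a range were named after their values were seen. The members, lists and rules were chosen with earlier results of these data known. Depth limits the precision of low genes, and Cdc6 held between 1 and 69 counts per library.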

Additional observations from a re-analysis of the deposited data

How the results depend on the processing

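The number of the 39 genes called with SGC0946 against DMSO was 0 and became 2 with DESeq2 (E2f1 and Pcna), 2 with no filter on low counts (Pcna and Mcm6), 2 with only the compared groups in the fit (E2f1 and Pcna) and 4 with the replicate block, and it ranged from 0 to 3 when each library was left out in turn, with Cdc6 called without SGC0946 replicate 1 and Pcna, Mcm6 and Mcm2 without SGC0946 replicate 3. Over all genes these fits called 1178 of 12013 with DESeq2, 1123 of 17492 with no filter and 1143 of 11521 with only the compared groups. The replicate block called 1481 of 12013. Without SGC0946 replicate 1 the fit called 1099 of 12026, and without SGC0946 replicate 3 it called 993 of 12002. With SGC0946+LPS against DMSO+LPS the count of members was 1 and became 0 with library totals, with only the compared groups and without mouse 2. That count ranged from 0 to 1 when libraries were left out. With SGC0946+GW3965 against DMSO+GW3965 it was 0 and became 1 (Kif11) with DESeq2, with no filter, with the replicate block and without replicates 2 and 4, and ranged from 0 to 1 when libraries were left out, the 1 being Kif11 without SGC0946+GW3965 replicate 3 (-0.85, adjusted p = 0.037). Over all genes of that comparison, 561 of 17492 were called with no filter and 454 of 12182 without SGC0946+GW3965 replicate 3. The GW3965 response became 4 with only the compared groups in DMSO cells and 9 without replicates 2 and 4 in SGC0946 cells. Left-out libraries moved the LPS counts from 20 to 26 in SGC0946 cells and from 23 to 25 in DMSO cells. The cause of these moves was not tested.

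Among the values of the named genes in the comparisons that name them, signs turned in 9. With library totals, Cenpe was at -0.00, Pcna at -0.03 and Tpx2 at -0.28 in the LPS response of DMSO cells, and Tpx2 at -0.11, Tyms at -0.16, E2f3 at -0.02 and Lin54 at -0.32 in that of SGC0946 cells. Without replicates 2 and 4, Mcm2 was at 0.01 and Tpx2 at 0.11 with SGC0946 against DMSO. Of the values of these genes over all alternatives, 2356 kept their direction and side of the threshold, 160 were no longer past it and 18 were newly past it. The replicate block, with the mouse as a term, called 4, 1 and 1 members in the inhibitor comparisons without a stimulus, after LPS and after GW3965, and 27 in the LPS response of DMSO cells, where it added Cdk1 and Mcm5; among the members it changed no other call. The fits without mouse 2 or mouse 4 were chosen after seeing the data. SGC0946+GW3965 against DMSO+GW3965 could not be fitted without the libraries titled reanalyzed, since no DMSO+GW3965 library was left.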
